A study of Mus musculus with 2 samples.

Results

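Of the 32285 genes counted, 8 genes of central myelin were followed across the nuclei of the adult mouse hippocampus and of the embryonic mouse brain. They are Mbp, Mobp, Cnp, Mal, Ugt8a, Opalin, Mog and Mag, a list given by symbol, and each symbol was found once in both libraries. The study tags nuclei in a frozen tissue section with spatial barcodes from a bead array (Slide-tags) and then sequences their RNA in droplets, counting unique molecular identifiers (UMIs), which mark single captured molecules. The adult library came from the hippocampal region of an adult mouse, and per the study's methods such mice were males of the inbred strain C57BL/6J, 56 days old, perfused under isoflurane. The embryonic library came from the brain of a purchased C57BL/6J embryo at embryonic day 14 (E14), frozen whole after its mother had been perfused. The labels and methods name no transgene and no treatment for either. There was 1 library per tissue, so no test between them was possible, and age, region, supplier, sequencing and Cell Ranger version cannot be told apart in any difference between the libraries. Intervals in parentheses are exact 95% intervals (Poisson for levels, Clopper-Pearson for shares of nuclei, and the conditional binomial for ratios of levels or UMIs) and cover counting error only.

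Myelin is the lipid-rich sheath that oligodendrocytes wrap around axons of the central nervous system. Oligodendrocyte precursors stop dividing, pass through a committed stage marked by Gpr17 and then switch on the genes of the sheath, in rodents mostly after birth. Mbp and Mobp encode basic proteins that hold the cytoplasmic faces of the membrane together, and the mRNAs of both are known to be carried out of the cell body into the myelin-forming processes. Cnp encodes a cyclic nucleotide phosphodiesterase that keeps cytoplasmic channels in the sheath open. Mal encodes a membrane raft proteolipid, also known from epithelia and lymphocytes, and Ugt8a the enzyme that makes galactosylceramide, the main glycolipid of myelin. Opalin, Mog and Mag encode surface glycoproteins of the oligodendrocyte and its sheath.

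Nuclei were put into classes by marker genes that held none of the 8 genes. A marker list qualified in a nucleus if at least 3 of its genes had a UMI and its share of the UMIs was above that in the library, and it named the nucleus if this excess was at least 3 times that of any other list that qualified. After quality filters the adult library held 1609 nuclei and 15346746 UMIs, and the E14 library 9036 nuclei and 58923882 UMIs. In the adult, 224 nuclei were oligodendrocyte-like (13.9%), 34 oligodendrocyte precursor-like, 127 astrocyte-like, 45 microglia-like and 41 endothelial-like, and 679 were neurons of 4 kinds (347 dentate granule-like, 202 pyramidal-like, 88 thalamic-like and 42 inhibitory-like). The suffix is left out from here on. Another 103 nuclei met the rule for more than 1 class and 349 for none. The 10 oligodendrocyte markers named these nuclei, so their levels there only describe the rule, for example Aspa, which breaks down N-acetylaspartate, at 1163 against 10.8 UMIs per 1000000 UMIs (CPM), and Prr5l at 2282 against 18.6 CPM. No marker of another class was among the 10 leading genes of any class of at least 20 nuclei, which the rule itself favours. Adult microglia and the E14 endothelial, fibroblast or mesenchyme and choroid plexus classes had 0 of their own markers among these 10.

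Oligodendrocytes held the highest level of all 8 genes. In the 224 oligodendrocytes, Mbp was at 4721 CPM (4572 to 4873), Mobp at 1299 CPM (1221 to 1380), Cnp at 974 CPM (907 to 1045), Mal at 1850 CPM (1758 to 1947), Ugt8a at 993 CPM (925 to 1064), Opalin at 581 CPM (530 to 636), Mog at 1174 CPM (1100 to 1251) and Mag at 1511 CPM (1427 to 1598). Levels of different genes are not ranked against each other, since capture at the 3′ end and the share of intronic reads differ between genes. Against all other nuclei with a class, the level in oligodendrocytes was 38.9-fold higher for Mbp, 59.5-fold for Mobp, 33.1-fold for Cnp, 160-fold for Mal, 124-fold for Ugt8a, 265-fold for Mag, 418-fold for Mog and 488-fold for Opalin. All 8 genes passed a limit of 10-fold, which 2.47% of the 13903 genes with at least 50 UMIs passed (343 genes). The genes of cytoplasmic proteins (Cnp, Mbp and Mobp) had the lowest factors and those of surface proteins (Mag, Mog and Opalin) the highest. In the other nuclei Cnp was at 29.4 CPM and Opalin at 1.19 CPM.

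Most oligodendrocytes carried most of the genes. A UMI of Mbp was found in 223 of 224 nuclei (99.6%, 97.5 to 99.99), with a median of 12.5 and a maximum of 158 UMIs, and the 10 nuclei with most Mbp held 23.5% of its UMIs in the class. The median oligodendrocyte had a UMI of 7 of the 8 genes, 109 nuclei had all 8, and none had 0. Outside the class, 5 or more of the 8 genes were found in 3 of 34 precursors, 8 of 127 astrocytes, 1 of 45 microglia, 0 of 41 endothelial nuclei, 1 of 202 pyramidal, 2 of 88 thalamic, 0 of 42 inhibitory and 0 of 347 dentate granule nuclei, although the dentate nuclei were deeper, with a median of 11551 UMIs against 3081 in oligodendrocytes.

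**Figure D1:**
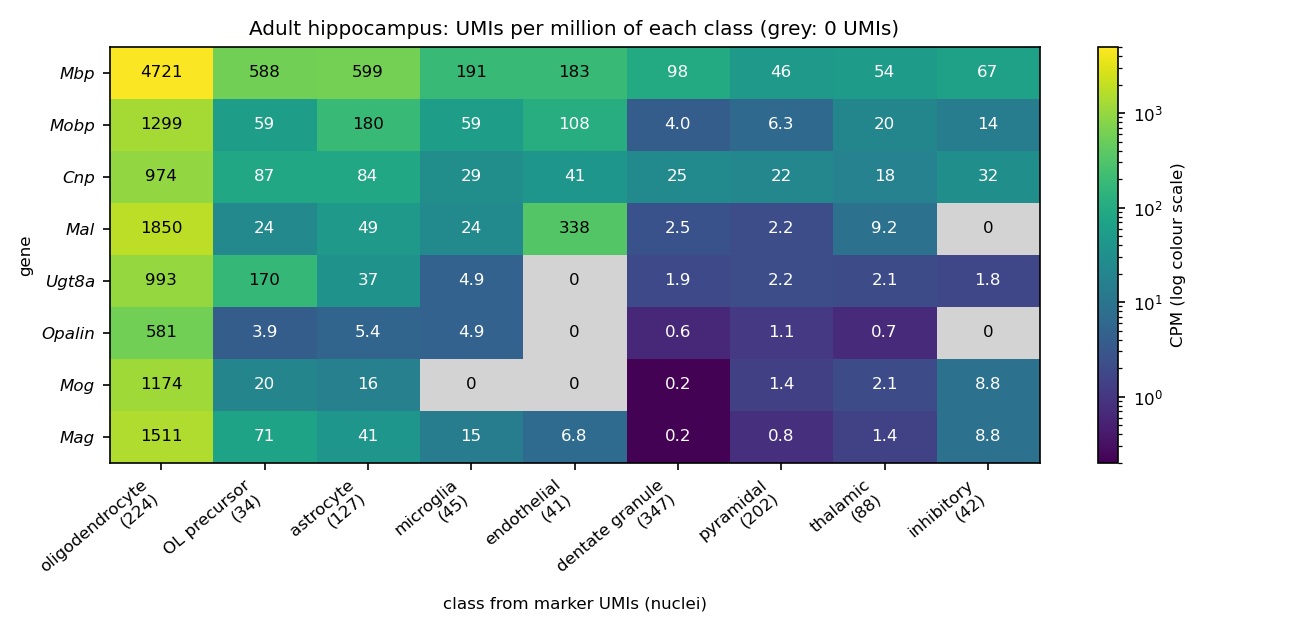
UMIs per 1000000 (CPM, log colour scale, values printed) of the 8 genes (rows) summed over the nuclei of each adult class (columns, number of nuclei in parentheses; OL precursor is the oligodendrocyte precursor). Oligodendrocytes lead every row, Mbp is lowest in pyramidal neurons at 45.6 CPM, and Opalin, Mog and Mag are at most 8.76 CPM in the 4 neuronal columns.

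The genes lie on separate chromosomes. In GENCODE vM21 on GRCm38, Mobp spans chr9:120149707-120181484 on the plus strand, Cnp chr11:100574904-100591729 on the plus strand, and 5 lie on the minus strand, namely Mal at chr2:127633226-127656695, Ugt8a at chr3:125865271-125938619, Opalin at chr19:41061710-41077113, Mog at chr17:37010743-37023398 and Mag at chr7:30899176-30914873. All 8 are protein-coding. Cnp overlaps Dnajc7 on the opposite strand and Mobp overlaps the processed transcript Gm38642 on its own strand, which had 33 UMIs in each library.

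Promoter windows were read for the 7 genes found in the RefSeq promoter table (GRCm38.p6), as the 250 bases before the start, and searched on both strands for the core of the MYRF motif (CTGGCAC or CTGGTAC) and of the SOX motif (ACAAAG or ACAATG). MYRF and SOX10 are the transcription factors known to switch on myelin genes. A MYRF core was found in a window of 3 of the 7 genes (Cnp, Mog and Mag), while 5.93% of all 32851 windows of that length held one. A SOX core was found for 4 of the 7 (Mobp, with 6 matches, Cnp, Opalin and Mag), against 25.2% of all windows. The 7 genes had 9 windows, since Mag had several, and its overlapping windows share their matches. The genes are counted by any window and the background by single windows, so these values are not like for like. The windows of Mog, Opalin and Mal are shown because Mog and Opalin stayed closest to oligodendrocytes while Mal was also found in endothelial nuclei. A further reason is that these windows end where the GENCODE gene begins. They are chr17:37023399-37023648, chr19:41077114-41077363 and chr2:127656696-127656945, all minus strand, printed 5′ to 3′ in the direction of the gene. Motif matches of either strand are in capitals. The Mog window holds the MYRF core read on the other strand at position -83 from the start, the Opalin window a SOX core at position -139, and the Mal window no match.
Mog: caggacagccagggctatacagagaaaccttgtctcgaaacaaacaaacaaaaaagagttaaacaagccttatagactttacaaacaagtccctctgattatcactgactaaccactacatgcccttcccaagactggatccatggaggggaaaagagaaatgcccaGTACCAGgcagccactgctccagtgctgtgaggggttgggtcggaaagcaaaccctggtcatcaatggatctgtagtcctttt
Opalin: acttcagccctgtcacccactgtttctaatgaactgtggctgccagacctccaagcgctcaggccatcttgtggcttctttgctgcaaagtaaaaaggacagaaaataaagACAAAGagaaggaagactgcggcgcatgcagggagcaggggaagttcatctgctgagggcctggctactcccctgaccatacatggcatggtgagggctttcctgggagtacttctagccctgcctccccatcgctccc
Mal: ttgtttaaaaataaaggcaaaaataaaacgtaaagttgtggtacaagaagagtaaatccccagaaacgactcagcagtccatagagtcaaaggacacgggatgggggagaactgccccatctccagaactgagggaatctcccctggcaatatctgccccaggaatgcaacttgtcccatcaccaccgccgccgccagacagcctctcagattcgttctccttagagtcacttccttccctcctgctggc
A match describes the letters and was not tested as a binding site.

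In neurons the 8 genes fell apart into genes with a wide tail and genes with almost none. In the 679 neurons as 1 pool, Cnp was at 2.39% of its oligodendrocyte level (2.06 to 2.76) and Mbp at 1.52% (1.41 to 1.65). Mobp was at 0.586% (0.460 to 0.737), Ugt8a at 0.204% (0.126 to 0.314), Mal at 0.172% (0.118 to 0.243), Opalin at 0.133% (0.0569 to 0.264), Mog at 0.115% (0.0626 to 0.194) and Mag at 0.0702% (0.0349 to 0.126). The intervals of Cnp, Mbp and Mobp were apart from each other and from the other 5, while those of neighbours among these 5 overlapped. Of all UMIs of a gene in the library, oligodendrocytes held 59.6% for Mbp, 64.8% for Mobp, 59.1% for Cnp, 77.1% for Mal and 81.3% for Ugt8a, and 86.4%, 87.6% and 84.1% for Opalin, Mog and Mag. Neurons held 18.1% of the Cnp UMIs, 11.7% of the Mbp UMIs and 0.759% of the Mag UMIs. Of all 15346746 UMIs of the library, neurons held 10373976 and oligodendrocytes 806835.

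**Figure D2:**
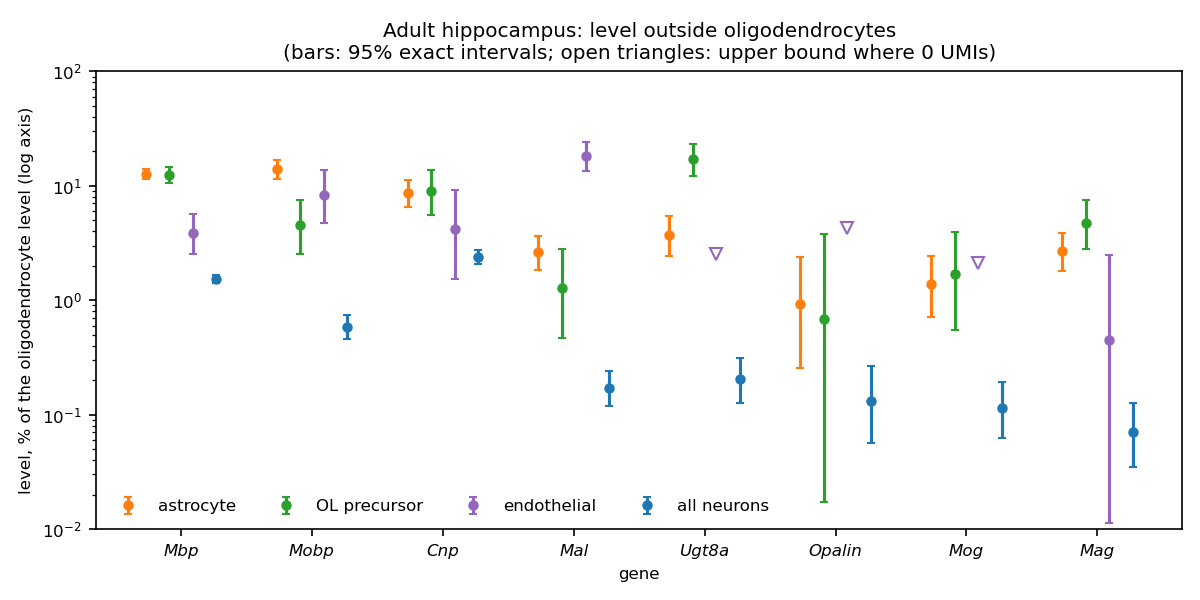
Level of each gene in astrocytes, oligodendrocyte precursors (OL precursor), endothelial nuclei and all neurons, as a percent of its level in oligodendrocytes (log axis), with exact 95% intervals and open triangles for the upper bound where a class had 0 UMIs. Mbp, Mobp and Cnp stand highest in astrocytes and neurons, Mal in endothelial nuclei at 18.3% and Ugt8a in precursors at 17.1%.

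Mbp, the most widely found of the 8, had the following order of levels over the other classes. Astrocytes (599 CPM, 545 to 658) and precursors (588 CPM, 498 to 691) overlapped, then came microglia (191 CPM, 136 to 261) and endothelial nuclei (183 CPM, 120 to 266), which also overlapped. In microglia, however, 1 nucleus held 33 of the 39 Mbp UMIs. Dentate granule neurons followed at 98.4 CPM (89.6 to 107.7), above thalamic (54.4 CPM, 42.9 to 67.9) and pyramidal neurons (45.6 CPM, 39.0 to 53.1). Inhibitory neurons (66.5 CPM, 47.1 to 91.4) overlapped all 3.

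The share of nuclei with a UMI moves with depth, so each nucleus was also thinned to 1000 UMIs. Unthinned, 51.0% of neurons (47.1 to 54.8) had a UMI of Mbp and 11.1% of microglia (3.71 to 24.1) did. Neurons were far deeper, with a median of 13239 against 2288 UMIs. After thinning, which left out 16 neurons, 6 oligodendrocytes, 8 astrocytes and 2 microglia as too shallow, Mbp was found in 96.8% of oligodendrocytes (93.5 to 98.7), 26.1% of astrocytes (18.4 to 34.9), 7.69% of neurons (5.78 to 9.99) and 2.33% of microglia (0.0589 to 12.3). The thinned share in astrocytes lay above those in neurons and microglia. No class is known to lack every transcript of the Mbp gene, which also gives rise to longer golli transcripts known from neurons and immune cells. Counts per gene do not separate these from the myelin transcripts, so no background share can be given for Mbp. For Mog the thinned shares were 62.8% of oligodendrocytes, 1.68% of astrocytes (0.204 to 5.94) and 0.302% of neurons (0.0366 to 1.08). For Opalin they were 39.4% of oligodendrocytes and 0 of 663 neurons, for which the exact interval reaches 0.555%.

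**Figure D3:**
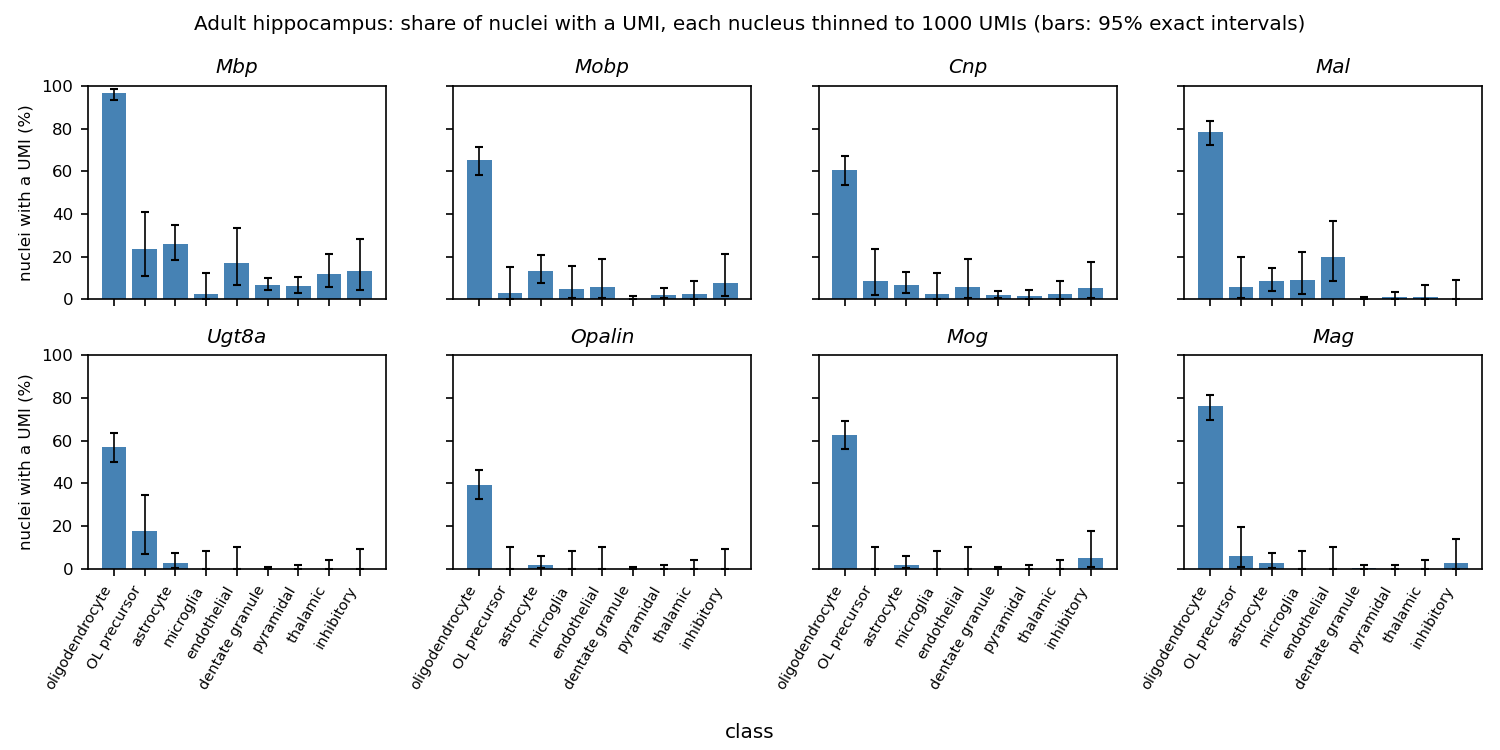
Share of nuclei (%, linear axis from 0) with at least 1 UMI of each gene after thinning every nucleus to 1000 UMIs, by adult class, with exact 95% intervals (OL precursor is the oligodendrocyte precursor). Only Mbp is above 5% in all 4 neuronal classes, and Mal has its second highest bar in endothelial nuclei, at 20.0%.

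The wide tail of Mbp and Mobp moved with a low share of Malat1, a long non-coding RNA kept in the nucleus. Outside oligodendrocytes, 316 of the barcodes kept had under 1.5% of their UMIs from Malat1, with a median of 907.5 UMIs, and 208 of them had no class. In these Malat1-poor barcodes Mbp stood at 1390 CPM (1291 to 1495), or 29.5% of its oligodendrocyte level, and Mobp at 487 CPM (429 to 551), or 37.5%. Cnp was at 13.9% of its oligodendrocyte level (10.8 to 17.8) and Mal at 8.67% (6.87 to 10.8). Ugt8a, Opalin, Mog and Mag were at 2.31%, 2.30%, 2.93% and 3.03%, with upper bounds of 4.06%, 4.78%, 4.65% and 4.54%. In the 621 neurons with more Malat1, Mbp was at 1.35% and Mobp at 0.361%. Ugt8a, Opalin, Mog and Mag were at 0.21%, 0.13%, 0.12% and 0.071% in those neurons, also below the Malat1-poor barcodes. Camk2a, whose mRNA is known to travel into dendrites, was also higher there, at 6770 CPM in the Malat1-poor barcodes without a class against 1119 CPM in neurons with more Malat1.

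The same split ran through the classes. Among astrocytes, Mbp was at 1906 CPM (1559 to 2308) in 23 Malat1-poor nuclei and at 494 CPM (443 to 549) in the other 104. Among neurons it was at 673 CPM (544 to 823) in 58 Malat1-poor nuclei and at 63.8 CPM (59.0 to 68.9) in the other 621. Mobp was at 222 CPM (151 to 315) in those 58 neurons and at 4.69 CPM (3.46 to 6.22) in the 621. Malat1-poor nuclei thus gave 94 of the 747 Mbp UMIs and 31 of the 79 Mobp UMIs of neurons. The part of RNA from outside the nucleus in these values was not tested.

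Ratios between the UMIs of pairs of genes, chosen after values had been seen, differed between the classes. In the Malat1-poor barcodes there were 2.86 Mbp UMIs to 1 Mobp UMI (2.47 to 3.31), in oligodendrocytes 3.63 (3.39 to 3.90), in Malat1-rich astrocytes 3.62 (2.87 to 4.61) and in Malat1-rich thalamic neurons 2.85 (1.48 to 5.84). In Malat1-rich pyramidal neurons the ratio was 10.2 (5.99 to 18.7) and in dentate granule neurons 25.9 (16.0 to 44.9), with 441 Mbp against 17 Mobp UMIs. The ratio of Cnp to Mobp was 0.278 (0.211 to 0.364) in the Malat1-poor barcodes and 0.743 (0.676 to 0.816) in oligodendrocytes, but 5.20 (2.97 to 9.73) in pyramidal and 6.71 (4.01 to 11.9) in dentate granule neurons. Both ratios were higher in these hippocampal neurons than in the Malat1-poor barcodes, and what sets them was not tested. The ratio of Mbp to Mag was 3.13 (2.93 to 3.34) in oligodendrocytes, 13.0 (8.69 to 20.1) in Malat1-rich astrocytes and 30.3 (20.2 to 47.7) in the Malat1-poor barcodes.

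**Figure D4:**
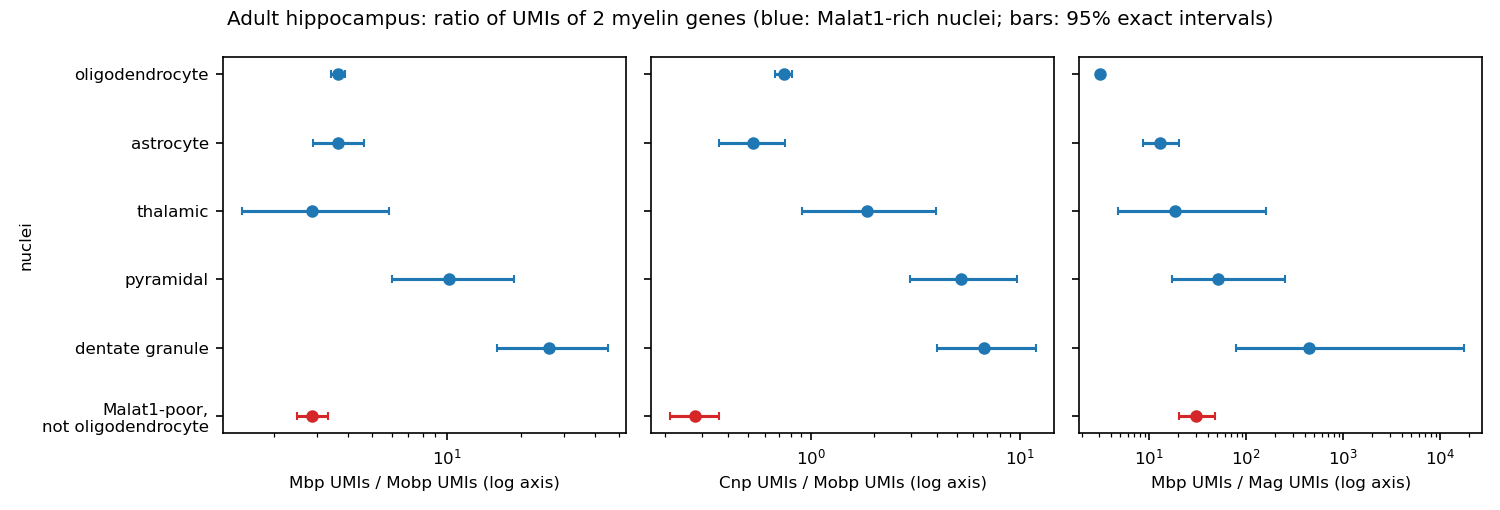
Ratio of the UMIs of 2 genes (log axes, exact 95% intervals) in Malat1-rich nuclei of 5 adult classes (blue) and in Malat1-poor barcodes outside oligodendrocytes (red). Dentate granule and pyramidal neurons lie to the right of the red point for Mbp over Mobp (25.9 and 10.2 against 2.86) and for Cnp over Mobp (6.71 and 5.20 against 0.278).

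The Mbp UMIs of Malat1-rich nuclei were also set beside depth within each class. In dentate granule neurons the deepest quartile of these nuclei had 3.77 times the UMIs of the shallowest quartile and 3.32 times the Mbp UMIs (2.49 to 4.47), a level of 99.4 against 113 CPM. In pyramidal neurons it was 4.86 times the Mbp UMIs (2.71 to 9.35) for 3.12 times the depth, and in thalamic neurons 2 times (0.853 to 5.05) for 5.03 times the depth, with levels of 30.8 against 77.4 CPM. Cnp in dentate granule neurons had 4.07 times the UMIs (2.24 to 7.91). In Malat1-rich astrocytes the deepest quartile had 4.59 times the UMIs in all and 11 times the Mbp UMIs (6.59 to 19.7), from 238 to 571 CPM.

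Of the 8 genes, Ugt8a kept the highest share of its oligodendrocyte level in oligodendrocyte precursors, although its interval overlapped those of Mbp (12.5%, 10.5 to 14.7) and Cnp (8.92%, 5.55 to 13.6). It was at 170 CPM (123 to 229) in the 34 precursors, 17.1% of the oligodendrocyte level (12.3 to 23.3), against 3.69% in astrocytes and 0.204% in neurons. It was found in 18 of the 34 nuclei (52.9%, 35.1 to 70.2), against 2.65% of the deeper neurons. After thinning the shares were 17.6% (6.76 to 34.5) and 0 of 663. Fa2h, which hydroxylates the fatty acids of the same glycolipids and was among the 3 genes most like Ugt8a over the classes, had a close value in precursors, at 17.6% of its oligodendrocyte level (12.3 to 24.5). Mbp was found in as many precursors, but 96 of its 149 UMIs (64.4%) came from 3 nuclei, and the same measure was 39.5% for Ugt8a, 94.4% for Mag and 93.3% for Mobp.

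The precursors were split by Gpr17, a receptor of the committed stage, after values had been seen. Mbp was at 889 CPM (743 to 1055) in the 20 nuclei with a Gpr17 UMI and at 178 CPM (107 to 277) in the 14 without, and Ugt8a at 253 CPM (178 to 349) and 56.1 CPM (20.6 to 122). Cnp was at 137 CPM (83.5 to 211) and 18.7 CPM (2.26 to 67.5). A few nuclei carried much of this: 60 of the 130 Mbp UMIs with Gpr17 were in 1 nucleus, the 5 Mog UMIs in 2 nuclei and 17 of the 18 Mag UMIs in 3 nuclei. The nuclei with Gpr17 were also deeper, with a median of 6584 against 5125.5 UMIs. Gpr17 was 1 of the markers that named the class.

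Mal set itself apart in endothelial nuclei. In the 41 endothelial nuclei it was at 338 CPM (251 to 446), 18.3% of the oligodendrocyte level (13.5 to 24.2), and was found in 23 nuclei (56.1%, 39.8 to 71.5) with at most 6 UMIs in any of them. The same nuclei, with a median of 2919 UMIs, had 27 UMIs of Mbp (3.87% of its oligodendrocyte level, 2.55 to 5.64), 16 of Mobp (8.33%, 4.74 to 13.6) and 6 of Cnp (4.17%, 1.52 to 9.11). They had 1 UMI of Mag and 0 of Ugt8a, Opalin and Mog. In astrocytes, which were deeper, Mal was found in 17.3% of nuclei (11.2 to 25.0) and stood at 48.8 CPM (34.2 to 67.6). After thinning, which left out 6 of the 41 endothelial nuclei, the shares were 20.0% (8.44 to 36.9) and 8.40% (4.10 to 14.9), with intervals that overlapped, while 0 of 345 dentate granule nuclei had a Mal UMI. Leaving out Malat1-poor nuclei, endothelial Mal was 346 CPM (255 to 461) over 34 nuclei. Mal made up 50.0% of the UMIs of the 8 genes in endothelial nuclei (39.8 to 60.2) and 14.1% in oligodendrocytes.

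Other genes of the sheath and of oligodendrocyte metabolism, listed by function, were read the same way. Of 10 genes of myelin structure, 9 had enough UMIs and 8 were at least 10-fold higher in oligodendrocytes, among them Cd9 (18.0-fold), Tspan2 (98.0-fold) and the claudin Cldn11 (249-fold), while Omg was at 2.04-fold. For the cytoskeleton it was 3 of 6, with Tubb4a at 25.8-fold and Nfasc, whose other isoforms are neuronal, at 5.55-fold. For lipid synthesis it was 5 of 6, with Fa2h at 136-fold and Hmgcs1, of cholesterol synthesis in all cells, at 3.55-fold. For metabolism and transport it was 8 of 8, with Car2 at 40.1-fold, Trf at 154-fold and Enpp2 at 69.0-fold. The median over these 29 genes was 46.1-fold and that over the 8 genes 142-fold, against 0.890-fold over all 13903 genes. Car2 was at 14.1% in astrocytes (11.8 to 16.6), next to Mbp at 12.7% and Mobp at 13.9%.

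Genes with a like pattern over the 9 adult classes of at least 20 nuclei were named by the Pearson correlation of log2(CPM + 10), among 9619 genes. Closest to the sum of the 8 genes were the nuclear RNA Neat1 (r = 0.97), Cldn11 (0.97) and Ttyh2 (0.97). Closest to Mobp was Qdpr (0.98), to Cnp Cldn11 (0.99), to Mal Taldo1 (0.99), to Ugt8a Ninj2 (0.997), to Opalin 4930420G21Rik (0.99), to Mog C030029H02Rik (0.99) and to Mag Tnfaip6 (0.98). Within the list, Cnp and Mag were closest (0.99) and Mal and Ugt8a furthest apart (0.67). These values describe 9 points from 1 library that share its depth, and 1 class, the oligodendrocytes, is far above the rest for every pair.

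In the E14 brain the 8 genes together were at 83.2 CPM (80.9 to 85.5), against 13103 CPM in adult oligodendrocytes and 111 CPM in adult neurons. Nearly all of it came from 4 genes, which were Cnp with 2148 UMIs, Mbp with 1372, Mog with 846 and Ugt8a with 431. Mag had 52 UMIs in 9036 nuclei, Mal 30, Opalin 13 and Mobp 8. Whether the E14 counts had been corrected for background before deposit is not known from the sources used here, and the low levels below depend on it. Relative to adult oligodendrocytes the E14 library was 26.7-fold lower for Cnp, 81.8-fold lower for Mog, 136-fold lower for Ugt8a, 203-fold lower for Mbp and 9567-fold lower for Mobp. Few nuclei carried the adult oligodendrocyte markers: 62 nuclei had a UMI of at least 3 of the 10 adult oligodendrocyte markers and 2 nuclei of at least 5, and some of these markers, such as St18 at 67.6 CPM, were widely found at this age.

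Cnp, Mbp and Mog were spread over the E14 classes. Cnp ran from 26.3 CPM (19.7 to 34.4) in Cajal-Retzius neurons to 52.2 CPM (38.4 to 69.4) in endothelial nuclei, with radial glia, the neural stem cells of this age, at 44.1 CPM (36.7 to 52.7). Mbp was at 25.5 CPM (22.4 to 28.9) in forebrain GABAergic neurons, 28.1 CPM (23.7 to 33.2) in thalamic neurons and 18.3 CPM (13.6 to 24.1) in radial glia, and its interval in the 23 oligodendrocyte precursors (33.8 CPM, 14.6 to 66.7) covered all of these. After thinning to 1000 UMIs a UMI of Mbp was found in 2.55% of E14 nuclei (2.22 to 2.92), against 11.7% unthinned, where the median nucleus had 4204 UMIs, and 1039 nuclei were left out. No class can serve as one known to lack Cnp, and no class of at least 20 nuclei had 0 UMIs of Cnp, Mbp, Mog or Ugt8a.

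**Figure D5:**
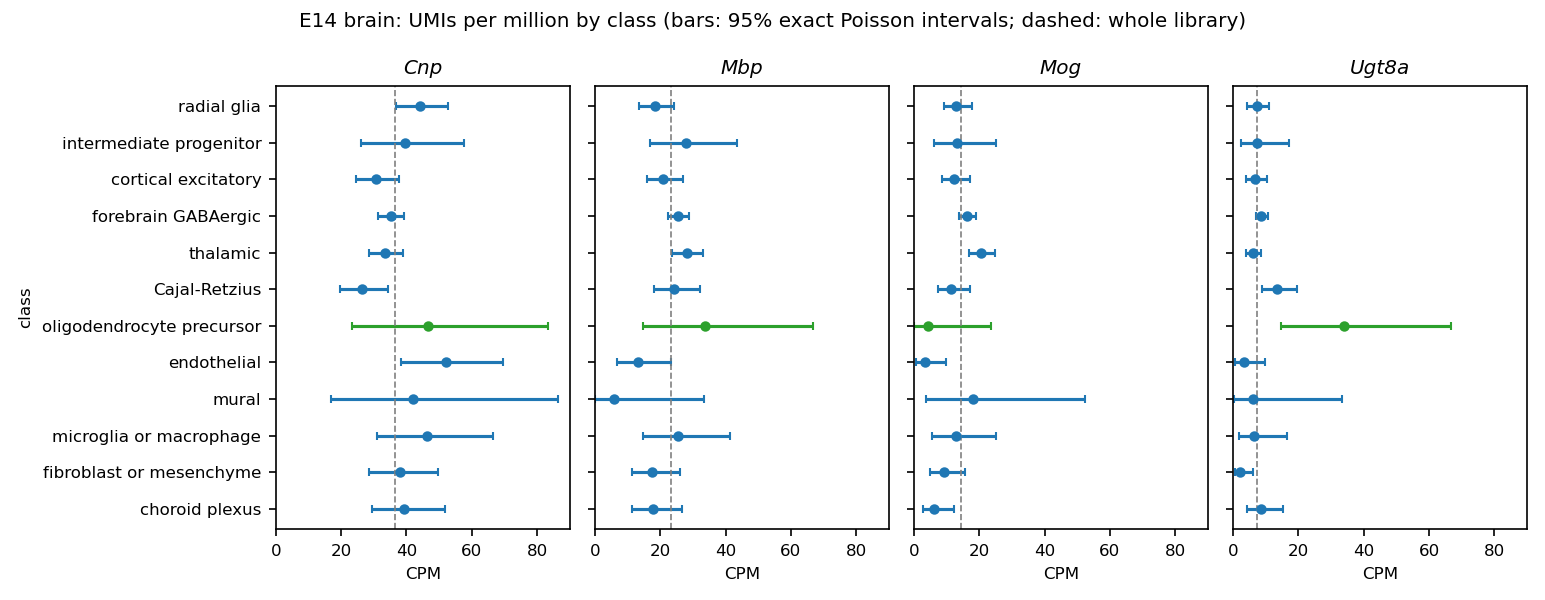
Level (CPM, linear axis from 0) of Cnp, Mbp, Mog and Ugt8a in 12 classes of the E14 library, with exact 95% Poisson intervals and the level of the whole library as a dashed line; oligodendrocyte precursors are green. Only Ugt8a has its highest value with an interval clear of the dashed line in precursors, at 33.8 against 7.32 CPM.

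At E14 the Mbp UMIs of a nucleus grew with its depth. In 4 large classes the deepest quartile of nuclei had 5.76 to 6.46 times the UMIs of the shallowest quartile and 3.77 to 7.40 times the Mbp UMIs. The Mbp level was lower in the deepest quartile in radial glia (17.4 against 26.0 CPM), forebrain GABAergic (24.1 against 31.1 CPM) and thalamic neurons (25.4 against 38.9 CPM). In cortical excitatory neurons it was 24.1 against 20.6 CPM. The shallowest quartiles held 6, 25, 17 and 5 Mbp UMIs in this order of classes. In all 4 classes the interval of the Mbp ratio covered the ratio of depth. In forebrain GABAergic neurons, for example, it was 4.6 (2.97 to 7.40) against 5.93. Ttr, a transcript made in the choroid plexus, had 0.737 to 0.863 times the UMIs in the deepest quartile of the same classes.

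Ugt8a was at 33.8 CPM (14.6 to 66.7) in the E14 precursors, above its level in radial glia (7.17 CPM, 4.38 to 11.1) and in endothelial nuclei (3.33 CPM, 0.687 to 9.74). The precursor value rests on 8 UMIs in 4 of 23 nuclei. These nuclei carried the markers Pdgfra (22 of 23), Sox10 (16 of 23) and Gpr17 (12 of 23), while Neu4 had 0 UMIs in the library. Next came Cajal-Retzius neurons, the early neurons of the outermost cortical layer, at 13.4 CPM (8.83 to 19.5), whose interval overlapped that of the precursors.

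At E14 Mal had its highest level among the 12 classes in endothelial nuclei, on few UMIs. Of its 30 UMIs, 10 were in 7 of the 91 endothelial nuclei, at 11.1 CPM (5.33 to 20.4). Nuclei of more than 1 class held 14. After thinning, 1 of 83 endothelial nuclei (1.2%, 0.0305 to 6.53) and 2 of 789 thalamic neurons had a Mal UMI. It had 0 UMIs in 1638 forebrain GABAergic nuclei, with an interval up to 0.395 CPM, and 9 of the 12 classes had none.

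Mog was higher in the E14 library than in adult neurons, at 14.4 CPM (13.4 to 15.4) against 1.35 CPM (0.738 to 2.26), a ratio of 10.6 (6.31 to 19.5). Thalamic neurons were highest at 20.5 CPM (16.7 to 24.9) and endothelial nuclei lowest at 3.33 CPM (0.687 to 9.74). Against adult neurons, the E14 library was also higher for Ugt8a and Cnp, with ratios of 3.61 (2.33 to 5.90) and 1.57 (1.37 to 1.80). This sets a library of all classes against neurons only. In E14 neurons Mog was at 16.2 CPM, Ugt8a at 8.19 CPM and Cnp at 33.1 CPM. Adult neurons had 1.35, 2.02 and 23.2 CPM. Across whole libraries Ugt8a (7.32 against 64.2 CPM) and Cnp (36.5 against 86.7 CPM) were lower at E14, as was Mog. The ratio of the E14 library to adult neurons was 0.323 (0.296 to 0.354) for Mbp and 0.160 (0.0943 to 0.271) for Mal. For Opalin, Mag and Mobp the ratios were 0.286 (0.110 to 0.796), 0.832 (0.429 to 1.77) and 0.0178 (0.00744 to 0.0369). Zfp57, which encodes a zinc finger protein of imprinting, lies on the other strand and ends 107 bases from the end of Mog. Zfp57 was at 63.7 CPM in the E14 library and 4.11 CPM in the adult library, whereas Mog was at 14.4 and 70.4 CPM. The level of Mog was 14.2 CPM (12.9 to 15.6) in the 2527 E14 nuclei with a Zfp57 UMI and 14.5 CPM (13.1 to 15.9) in those without, which were shallower (medians of 7374 and 3392 UMIs). In the adult, Mog was at 202 CPM (167 to 242) in the 44 nuclei with a Zfp57 UMI and 65.2 CPM (61.1 to 69.4) without. The nuclei without were again shallower (medians of 9736.5 and 6506 UMIs). Zfp57 was at 16.1 CPM (8.58 to 27.6) in adult oligodendrocytes, on 13 of its 63 UMIs. That class held 947 of the 1081 Mog UMIs, so the adult groups can differ in classes as well as depth. What sets the adult difference was not tested.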

How the data were processed

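The authors deposited UMI counts per gene and nucleus, as whole numbers not scaled for depth. They were made with Cell Ranger, per the file headers in version 6.1.2 for the adult and 7.0.1 for E14, on the mm10 genome with intronic reads included. The methods also name CellBender, which removes background counts, for embryo data, but the E14 table has a Cell Ranger header, so whether its counts were corrected is not known. A barcode was used if it held 500 UMIs or more, less than 5% of them mitochondrial, and 1 barcode was shared by both libraries. UMIs were summed per class and given as CPM. Nuclei are not replicates, so no p-value was computed.

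The genes, lists and markers were chosen with earlier results of these data known. The class rule, the 1.5% Malat1 limit, the Gpr17 split, the gene pairs, Zfp57 and the motifs were chosen after values had been seen. Named were the 8 genes, the 2 to 4 genes with most UMIs of each list, exceptions singled out by value, and the likest genes over classes. The 10-fold limit was applied to genes with at least 50 UMIs. Lists of RNAs of other cells served as a contrast: 0 of 6 neuronal, 0 of 4 other and 1 of 3 nuclear RNAs (Neat1, 62.9-fold) passed it. Scrublet in scanpy 1.11.5 marked 6 adult (0.373%) and 4 E14 nuclei (0.0443%), too few to have worked, so all nuclei were kept, and the 21 and 653 highest scores were removed as an alternative. Other alternatives were a minimum of 1000 UMIs, under 1% mitochondrial UMIs, 1 more marker, no Malat1-poor nuclei, thinning to 2000 UMIs and classes from 17 Seurat 5.3.0 clusters. Python 3.11.15, numpy 2.4.6, scipy 1.17.1, pandas 2.3.3 and R 4.3.3 were used, and the scripts were tested on simulated data. Spatial positions were not analysed here, and the values of 1 listed gene are not reported here.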

Additional observations from a re-analysis of the deposited data

How the results depend on the processing

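In neurons, the 8 genes summed were at 0.849% of their oligodendrocyte level, which became 0.758% with under 1% mitochondrial UMIs, 0.757% without nuclei under 1.5% Malat1 and 1.44% with classes from clusters. For Mbp the value of 1.52% became 1.36%, 1.34% and 2.16% under the same settings. The summed level in oligodendrocytes of 13103 CPM became 12733 CPM with 1 more marker and 13492 CPM with clusters. The thinned Mbp share of neurons of 7.69% became 10.9% with clusters and 14.1% when thinned to 2000 UMIs, where more molecules are drawn per nucleus. The clusters counted 1044 nuclei as neurons against 679 by markers. Some clusters were weakly named. A cluster of 204 nuclei was called pyramidal on 18 of its 43 nuclei with a class, and a cluster of 35 on 2 of 5. These 10 values left the interval of the reported value. The other 24 of 34, E14 levels included, were counted as unchanged. All of these stayed within the interval of the reported value except the 10-fold count below, which has no interval and stayed at 8 genes. Removing Malat1-poor nuclei was added for the 10-fold count after seeing the data: all 8 genes still passed, with factors of 34.3 (Cnp) to 519 (Opalin), and 2.53% of all genes did. With 1 library per tissue no replicate could be left out. No paired analysis was possible because the result comes from no test and each tissue has 1 library. Depth limits Opalin, Mobp, Mal and Mag at E14, which had 8 to 52 UMIs each.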
